A study of Mus musculus with 21 samples.

Results

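The 10 genes described here are the hormones and markers of enteroendocrine cells, the scattered hormone-secreting cells of the gut epithelium: Chga, Chgb, Gcg, Pyy, Insl5, Sst, Cck, Neurod1, Tac1 and Nts. The rule takes them by name and uses no measured value, though they were proposed with earlier results of these data known. Every non-control probe that the array files or a RefSeq record assigned to 1 of them was taken, which gave 14 of the 56605 at day 0 and 11 out of 55681 on the day 7 design, and each gene was described by its brightest probe on that day. The genes are 10 of the 27499 with a symbol on the day 0 arrays and 10 of the 24191 on the day 7 arrays.

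The data are 21 single-color Agilent arrays of total RNA from whole colon of germ-free male C57BL/6J mice, 1 array per sample. At day 0, before dextran sodium sulfate (DSS, a detergent-like polymer that injures the colon epithelium) was given, 7 arrays are labelled GF Card9-/- (Card9 deleted) and 6 are labelled GF WT. At day 7, at the end of 7 days of 2% DSS in the water, 4 arrays carry the label GF Card9-/- and 4 the label GF WT. All mice of both genotypes were germ-free, and Card9-/- is a deletion in every cell of the body, not in the epithelium alone. GF means germ-free and WT wild type throughout. The labels do not say whether mice of a group were littermates or shared a cage, so p-values measure the spread between these samples.

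Enteroendocrine cells make up a small minority of the epithelium and pack peptide hormones into dense-core granules, whose matrix proteins include chromogranins A and B. In the colon, L cells release peptides derived from proglucagon together with peptide YY and, towards the distal end, insulin-like peptide 5. Other enteroendocrine cells make serotonin, somatostatin or neurotensin, and the last of these is better known from the lower small intestine. Tachykinins and somatostatin are also made by enteric neurons, so RNA of whole colon holds these from more than 1 cell type. In such RNA, fewer cells of a type and less RNA per cell cannot be told apart.

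Spots well above background made up 54.5% to 64.9% per array at day 0 and 42.2% to 57.1% at day 7, and 0 spots were saturated. The Card9 signal runs against the labels. The brightest Card9 probe had a log2 signal of 8.71 to 9.24 in the day 0 arrays labelled GF Card9-/- and of 2.30 to 2.33 in those labelled GF WT, and of 7.93 to 8.57 against 2.38 to 7.85 at day 7. It was well above background in 7 of 7 and 0 of 6 arrays at day 0 and in 4 of 4 and 1 of 4 at day 7. The part of Card9 that was deleted is not given in the sources used here. A probe outside it could be bright in a mouse with the deletion, but a wild type mouse carries the whole gene, and the probe was not well above background in 6 of 6 arrays labelled GF WT at day 0 and 3 of 4 at day 7. The groups are therefore called by their labels, and each difference is the mean of the former label, GF Card9-/-, less the mean of the latter. Every signed difference below would turn if all labels were exchanged, and could change in size or sign if only some were. The 2 days used different array designs and were analyzed separately, and levels were not compared between days because day and design cannot be told apart. Many values of the 10 genes turn on 3 arrays, namely GF WT replicate 6 at day 0 (Nts, Insl5, Sst, Chga, Chgb and Pyy), GF Card9-/- replicate 5 at day 0 (Tac1) and GF WT replicate 5 at day 7 (Cck and Gcg), so several differences are also given without them. At day 7, Pyy in GF WT replicate 1 and Cck in GF Card9-/- replicate 2 also lay away from the other arrays of their label.

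All 10 genes were measured in germ-free colon. At day 0 each was well above background on every array (10 of 10 genes, 13 arrays). At day 7 this held for 8 of 10, the others being Nts, well above background on 4 of 4 arrays labelled GF Card9-/- and 2 of 4 labelled GF WT, and Neurod1, on 4 of 4 and 1 of 4. Of 10 further gut peptide genes, 5 cleared background on every array of both days, namely secretin (Sct), ghrelin (Ghrl), galanin (Gal), proenkephalin (Penk) and vasoactive intestinal peptide (Vip). Adcyap1 was well above background on 5 of 13 arrays and 3 of 8, and Npy, a neuropeptide, on 0 and 1. Gip and Gast, hormones of the upper small intestine and stomach, were well above background on 1 of 13 arrays each at day 0 and on 0 of 8 at day 7, and Ucn3 on 0 arrays of either day.

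**Figure D1:**
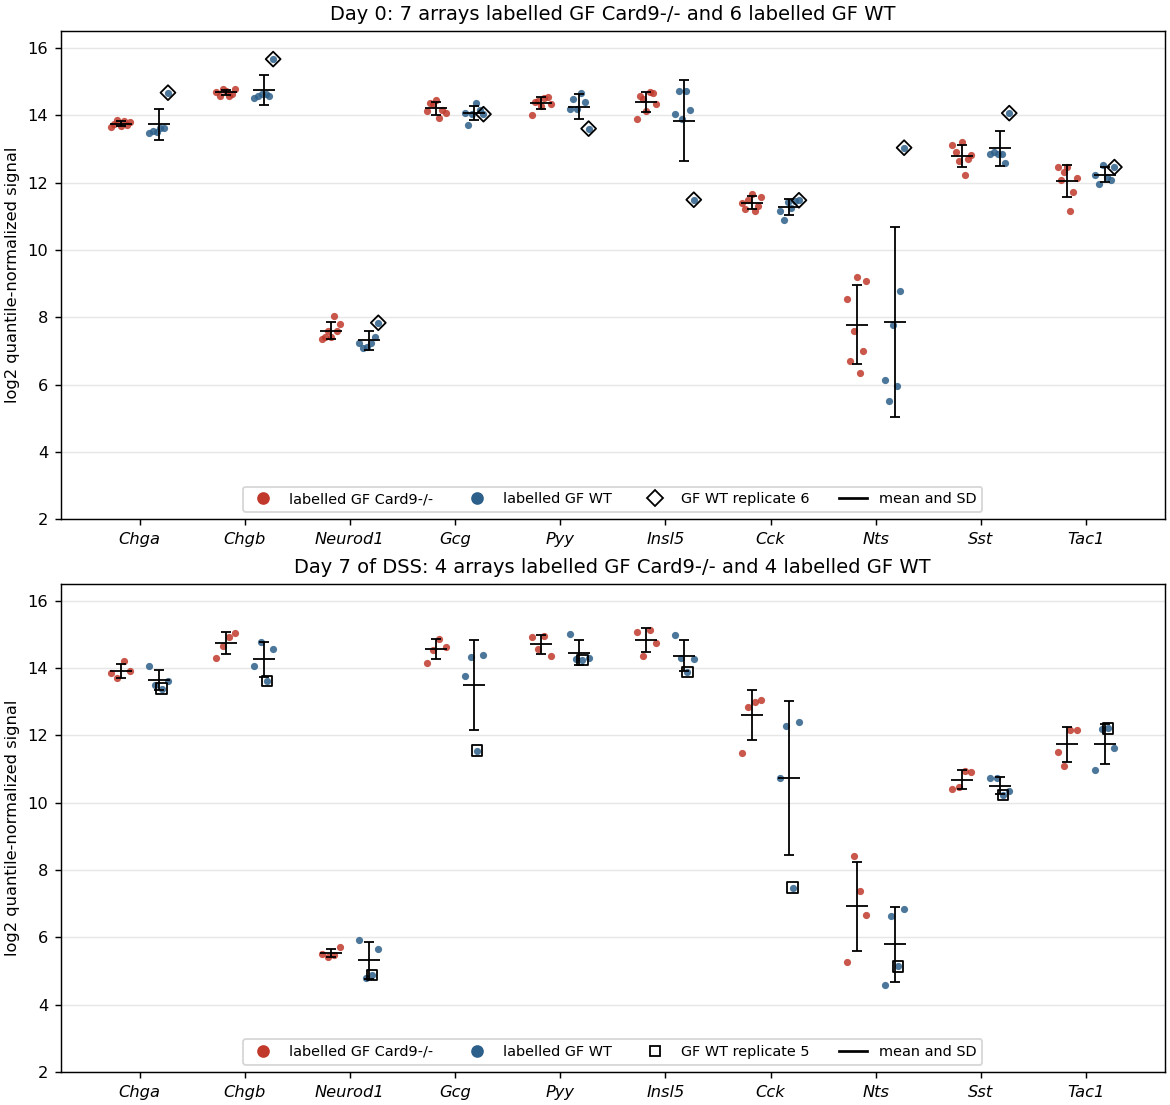
Log2 quantile-normalized signal of the brightest probe of each gene (vertical axis) by gene (horizontal axis) at day 0 (top) and day 7 of DSS (bottom). Red points are arrays labelled GF Card9-/-, blue points arrays labelled GF WT, and black bars the mean and SD; signals of different genes come from different probes and are not comparable. At day 0 GF WT replicate 6 (diamonds) lies away from every other array for Nts (13.04), Insl5 (11.49), Chga, Chgb and Sst, and at day 7 GF WT replicate 5 (squares) has the lowest Cck (7.47) and Gcg (11.54).

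The question put to these arrays is whether the genes differ between the genotype labels within a day. By limma with Benjamini-Hochberg adjustment over all probes, 0 of 10 genes passed the threshold of 0.05 at day 0, where 0.0253% of the 47410 tested probes did, and 0 of 10 at day 7, where 0% of 44643 did. At an unadjusted p under 0.05 the genes were again 0 of 10 on each day, against 5.84% of the probes at day 0 and 3.38% at day 7. The 2 labels overlapped in every gene on both days (0 of 10 not overlapping), while 0.458% of the probes at day 0 and 2.13% at day 7 did not overlap. At day 0, 6 genes were higher with the label GF Card9-/- and 4 were lower, with a median difference of 0.059 against 0.015 over all probes tested, 57% of which were above 0. At day 7, 9 were higher and 1 lower, with a median of 0.37 against 0.0013, and 50.4% of the probes were above 0. The median SD within a group was 0.31 at day 0 and 0.42 at day 7.

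**Figure D2:**
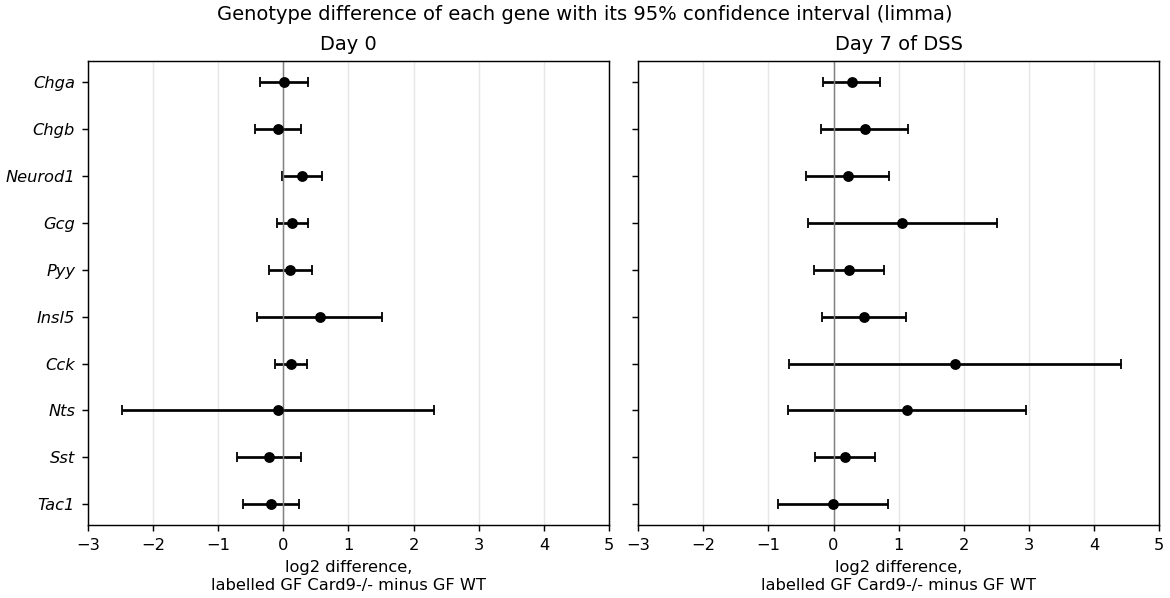
Log2 difference of each gene between the labels, GF Card9-/- less GF WT, at day 0 (left, 7 against 6 arrays) and day 7 of DSS (right, 4 against 4). Points are limma estimates and bars 95% confidence intervals; every interval holds 0, and the widest are those of Nts at day 0 (-2.48 to 2.31) and Cck at day 7 (-0.68 to 4.41).

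Chga and Chgb encode the chromogranins, and Neurod1 a transcription factor of the basic helix-loop-helix family that acts late in the differentiation of these cells. At day 0, Chga (probe A_51_P358316, chr12:103803083-103803142, plus strand, on the NCBI37 build of the files) had a log2 signal of 13.64, 13.74 and 13.86 (lowest, median, highest) in the arrays labelled GF Card9-/- and of 13.47, 13.58 and 14.68 in those labelled GF WT. The highest value of each of Chga and Chgb belonged to GF WT replicate 6, and the other arrays lay close together. Chgb (A_51_P191669, chr2:132620703-132620762, plus) had 14.57, 14.69 and 14.78 against 14.52, 14.61 and 15.67. Neurod1 (A_55_P2908538, chr2:79292819-79292878, minus) had 7.37, 7.60 and 8.04 against 7.08, 7.24 and 7.84, with overlapping ranges. The log2 difference was 0.011 (95% interval -0.36 to 0.38) for Chga, -0.083 (-0.44 to 0.28) for Chgb and 0.29 (-0.018 to 0.59) for Neurod1, for which limma gave an unadjusted p of 0.0627 and an adjusted p of 0.884.

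Without GF WT replicate 6, Chga and Neurod1 separated more clearly. The Chga difference was then 0.20 (unadjusted p = 0.00291, adjusted p = 0.367 by limma) and that of Neurod1 0.39 (unadjusted p = 0.0066, adjusted p = 0.443), so neither passed the threshold. They were the 2 of 10 genes with an unadjusted p under 0.05 without that array, where 7.52% of all probes tested had one. The sign of Chgb turned to 0.098, and 7 of the 10 genes were then higher and 3 lower, with a median of 0.11, while 57.5% of the probes were above 0.

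At day 7 the 4 arrays labelled GF Card9-/- had Chgb signals of 14.31, 14.66, 14.91 and 15.05, and the 4 labelled GF WT 14.07, 14.76, 13.62 and 14.57. The ranges overlapped, and the difference of 0.48 had an interval of -0.19 to 1.15. It was 0.26 without GF WT replicate 5, and within the 2 slides that held both labels it was below 0, at -0.26 and -0.11. Chga was 13.86, 13.71, 14.21 and 13.90 against 14.07, 13.50, 13.39 and 13.62, again overlapping. Chga differed by 0.28 (-0.16 to 0.71) and Neurod1 by 0.22 (-0.42 to 0.85) on its brightest day 7 probe (A_55_P2004972), while its other probe (A_52_P408391), which cleared background on 2 of 4 arrays per label, gave -0.24. For Neurod1 at day 7 the sign therefore depends on the probe. The difference without GF WT replicate 5 was 0.19 for Chga and 0.072 for Neurod1 on the brightest probe, and with 1 array left out it ranged from 0.18 (without GF Card9-/- replicate 4) to 0.42 (without GF WT replicate 1) for Chga and from 0.044 (without GF WT replicate 4) to 0.42 (without GF WT replicate 1) for Neurod1.

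Gcg, Pyy and Insl5 are the L cell peptides of this set: Gcg encodes proglucagon, the precursor of glucagon-like peptides, Pyy the appetite-lowering peptide YY, and Insl5 insulin-like peptide 5, the ligand of the receptor Rxfp4. At day 0, Gcg (A_51_P406253, chr2:62312685-62312744, minus) had 13.93, 14.16 and 14.45 in the arrays labelled GF Card9-/- and 13.72, 14.06 and 14.38 in those labelled GF WT. Pyy (A_52_P366462, chr11:101968311-101968370, minus) had 14.01, 14.41 and 14.56 against 13.61, 14.30 and 14.68. The 2 genes spread little over the 13 arrays, with a range of 0.72 for Gcg and 1.07 for Pyy on the log2 scale. Insl5 (A_55_P2255325, chr4:102690720-102690779, minus) had 13.88, 14.50 and 14.71 against 11.49, 14.11 and 14.72, and the value of 11.49 was that of GF WT replicate 6. The difference was 0.14 (-0.098 to 0.37) for Gcg, with 0.23 on its second probe, 0.11 (-0.22 to 0.44) for Pyy and 0.56 (-0.41 to 1.52) for Insl5. Within slides, Gcg was higher with the label GF Card9-/- on 4 of 4, by 0.00061 to 0.40. Without GF WT replicate 6 the difference was 0.13 for Gcg, -0.023 for Pyy and 0.087 for Insl5. That of Gcg was 0.067 without GF WT replicate 2, the lowest with 1 array left out.

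At day 7, Gcg was 14.16, 14.54, 14.88 and 14.63 in GF Card9-/- replicates 2, 2.1, 4 and 6 and 13.75, 14.33, 11.54 and 14.37 in GF WT replicates 1, 4, 5 and 6. Replicate 5 lay 2.83 below the median of the other arrays, and the ranges of the 2 labels overlapped without it as well as with it. Pyy was 14.93, 14.57, 14.95 and 14.35 against 15.02, 14.28, 14.24 and 14.30, and Insl5 15.08, 14.36, 15.12 and 14.73 against 14.99, 14.28, 13.88 and 14.28, each with overlapping labels. The difference was 1.05 (-0.39 to 2.50) for Gcg, 0.24 (-0.30 to 0.78) for Pyy and 0.46 (-0.18 to 1.10) for Insl5, and the adjusted p of each was 0.913 by limma. Without GF WT replicate 5 the difference was 0.40 for Gcg, 0.17 for Pyy and 0.30 for Insl5. The highest Pyy value of day 7 was that of GF WT replicate 1, and without it the Pyy difference was 0.43, whereas without GF Card9-/- replicate 4 it was 0.16.

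Cck encodes cholecystokinin, the peptide that triggers gallbladder contraction and pancreatic enzyme release, and Nts neurotensin. At day 0, Cck (A_55_P1977431, chr9:121398943-121399002, minus) was narrow, with 11.15, 11.39 and 11.67 in the arrays labelled GF Card9-/- and 10.89, 11.34 and 11.48 in those labelled GF WT. Nts (A_51_P485756, chr10:101944967-101945026, minus) had the widest range of the 10 genes, 7.52 on the log2 scale, with 6.33, 7.61 and 9.20 against 5.52, 6.96 and 13.04. The highest value again belonged to GF WT replicate 6, which was 53.2-fold above the median of the other 12 arrays. The Cck difference was 0.12 (-0.12 to 0.37), and 0.046 without GF WT replicate 2. The Nts difference was -0.083 (-2.48 to 2.31) with that array and 0.95 without it (adjusted p = 0.759 by limma). Within slides 1 to 4, each of which held both labels, the difference was 2.96, 0.010, 2.00 and -6.37, and the last of these is the slide of GF WT replicate 6.

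Cck at day 7 gave the largest difference of the 10 genes and rested on few arrays. It was 11.49, 12.84, 13.001 and 13.04 in GF Card9-/- replicates 2, 2.1, 4 and 6 and 10.74, 12.29, 7.47 and 12.41 in GF WT replicates 1, 4, 5 and 6. GF WT replicate 5 was 30.5-fold below the median of the other arrays. The difference of 1.86 (standard error 1.09, 3.64-fold, 95% interval 0.624 to 21.3-fold) had an adjusted p of 0.913 by limma. Without GF WT replicate 5 it was 0.78 (unadjusted p = 0.214). Within the 2 slides that held both labels it was -0.92 and 0.55, so the sign was not the same. Without that array all 10 genes were higher in the arrays labelled GF Card9-/- (10 higher and 0 lower, median 0.23), and 0 had an unadjusted p under 0.05 by limma, while 48.4% of the probes tested were above 0 and 3.01% had an unadjusted p under 0.05. Nts differed by 1.13 (-0.70 to 2.95) at day 7, where its signal was 5.26, 8.40, 7.37 and 6.67 against 4.58, 6.64, 5.13 and 6.83. With 1 array left out at a time it ranged from 0.64, without GF Card9-/- replicate 2.1, to 1.68, without GF Card9-/- replicate 2.

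Sst encodes somatostatin, which inhibits the release of other hormones, and Tac1 the precursor of substance P and neurokinin A. At day 0, Sst (A_55_P2837304, chr16:23889681-23889740, minus) had 12.22, 12.83 and 13.20 in the arrays labelled GF Card9-/- and 12.58, 12.85 and 14.07 in those labelled GF WT, and again the value of 14.07 was that of GF WT replicate 6. Tac1 (A_55_P1954693, chr6:7512893-7512952, plus) had 11.16, 12.15 and 12.46 against 11.96, 12.19 and 12.54, and the lowest value was that of GF Card9-/- replicate 5. The differences were -0.22 (-0.72 to 0.28) for Sst, and -0.011 without GF WT replicate 6, and -0.19 (-0.63 to 0.24) for Tac1, and -0.042 without GF Card9-/- replicate 5. At day 7, Sst was 10.41, 10.46, 10.95 and 10.91 against 10.73, 10.73, 10.22 and 10.35, and Tac1 11.49, 11.10, 12.15 and 12.16 against 10.96, 12.18, 12.20 and 11.62. The labels overlapped in both genes. The day 7 differences were 0.18 (-0.28 to 0.63) for Sst, on another probe of the gene (A_51_P262489), or 0.081 without GF WT replicate 5 (0.27 if GF Card9-/- replicate 2 is the one left out), and -0.013 (-0.86 to 0.83) for Tac1. Of the 3 further Tac1 probes at day 0, the one of the same RefSeq record (A_51_P216456) gave -0.094, and the other 2, of another transcript, were well above background on 0 of 13 arrays.

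Whether the label difference itself differs between the days was tested in a joint limma fit. It covered the 8 genes with a probe tested on both designs, which leaves out Sst and Neurod1. For these 8 genes that probe was the brightest on each day. Over 23633 shared probes 0% passed the threshold and 0 of 8 genes did, and at an unadjusted p under 0.05 there were 0 of 8 genes against 7.14% of the probes. The largest difference of differences, day 7 minus day 0, was that of Cck, 1.74 (-0.11 to 3.59, unadjusted p = 0.0639, adjusted p = 0.700), and without GF WT replicate 5 of day 7 it was 0.66. Nts (1.21, -2.08 to 4.50), Gcg (0.92, -0.16 to 2.00) and Chgb (0.56, -0.096 to 1.21) followed, each also below 0 at the lower end of the interval. That of Nts was 0.18 without GF WT replicate 6 of day 0, and without GF WT replicate 5 of day 7 that of Gcg was 0.27 and that of Chgb 0.35.

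How the genes varied together over the arrays was described by Pearson correlation after the mean of each label was subtracted, so that a shared label difference does not enter. With 10 genes there are 45 pairs per day. At day 0 (13 arrays), 15 pairs had an adjusted permutation p under 0.05, 9 positive and 6 negative, and 9 did by Spearman correlation. Without GF WT replicate 6, 4 pairs passed, of which Pyy with Insl5 and Cck with Nts were also among the 15. At day 7 (8 arrays), 5 pairs passed, all positive, and 0 by Spearman correlation or without GF WT replicate 5. In 1 pair, Pyy and Insl5, the correlation passed on both days, though at day 7 it missed the threshold in 6 of 8 settings with 1 array left out. It was 0.87 without GF WT replicate 5 (adjusted p = 0.179, exact permutation test) and lowest, 0.69, without GF WT replicate 1.

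**Figure D3:**
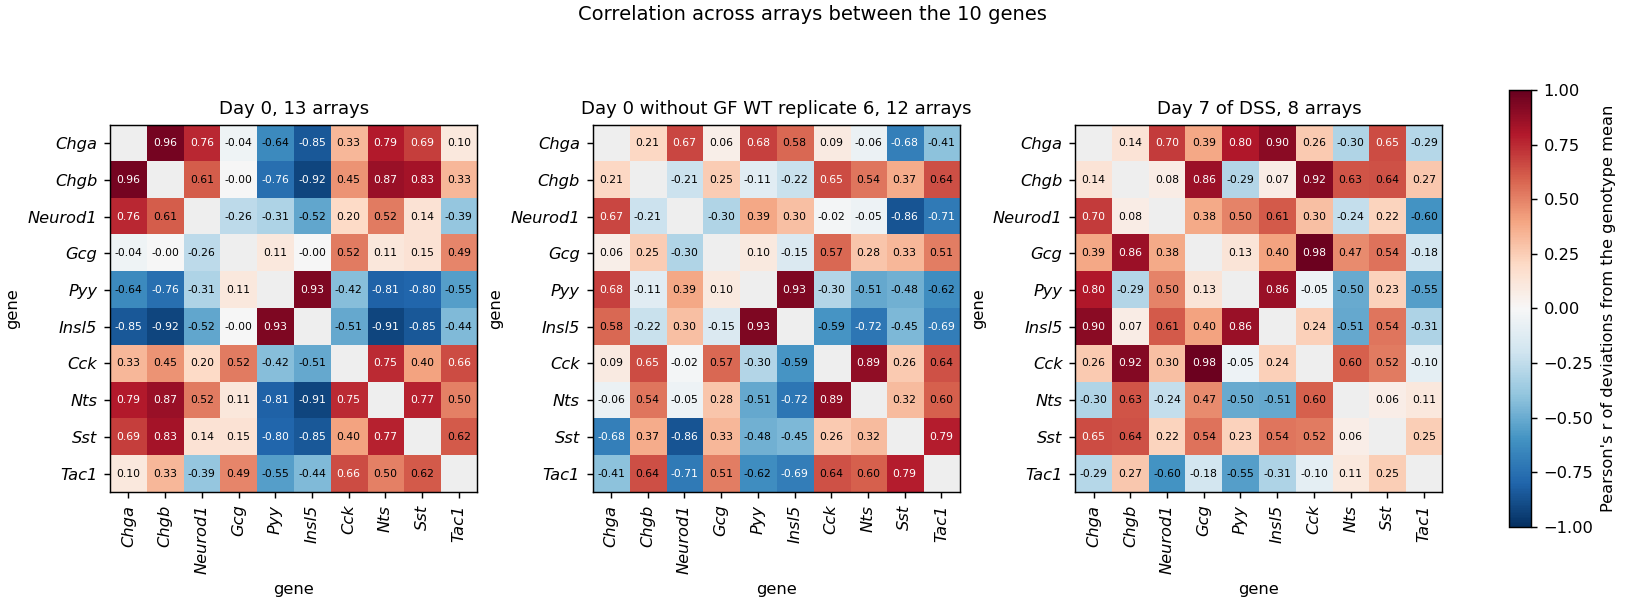
Pearson correlation of each pair of genes (rows and columns) over arrays, after subtraction of the mean of each label, at day 0 with all 13 arrays (left), at day 0 without GF WT replicate 6 (middle) and at day 7 of DSS (right); red is positive and blue negative. Pyy and Insl5 stay at 0.93 in both day 0 panels and are at 0.86 at day 7, while Chga and Chgb go from 0.96 to 0.21 without that array and are at 0.14 at day 7.

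Pyy and Insl5 went up and down together from array to array. Their correlation at day 0 was 0.93 (Spearman 0.92, p = 1e-05 and 4e-05, adjusted p = 0.00045 and 0.0009, permutation test). The first of these p-values is the smallest that 100000 permutations can give. It was 0.93 without GF WT replicate 6, 0.86 without the 2 arrays farthest from the median of Pyy, and 0.95 with slide means removed as well. At day 7 it was 0.86 (Spearman 0.79, p = 0.00362 and 0.0279, adjusted p = 0.0326 and 0.207, exact permutation test) and 0.59 without the 2 arrays farthest from the median, so there the relation rests on those arrays. Gcg, the third L cell peptide, did not follow them, with correlations of 0.11 to Pyy and -0.0017 to Insl5 at day 0.

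Nts ran with Cck and against Insl5. The correlation of Cck with Nts at day 0 was 0.75 (Spearman 0.91, p = 0.00269 and 2e-05, adjusted p = 0.0121 and 0.0009, permutation test), 0.89 without GF WT replicate 6 and 0.71 without the 2 arrays farthest from the median. That of Insl5 with Nts was -0.91 (Spearman -0.79, p = 0.00013 and 0.00219, adjusted p = 0.00292 and 0.0197, permutation test), -0.74 without the 2 arrays farthest from the median of Insl5, and -0.72 without GF WT replicate 6, when its adjusted p was 0.0663. In that array Nts was highest and Insl5 lowest, but the sign was the same among the other 12. At day 7 neither pair passed. The correlation there was 0.60 for Cck with Nts (Spearman 0.67, adjusted p = 0.411 and 0.415, exact permutation test), and 0.51 to 0.87 with 1 array left out. It was -0.51 for Insl5 with Nts (Spearman -0.38, adjusted p = 0.460 and 0.704, exact permutation test), and -0.81 to -0.28 with 1 array left out, the former without GF WT replicate 5.

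Gcg and Cck moved together at day 7, with a correlation of 0.98 (Spearman 0.88, p = 0.00067 and 0.00724, adjusted p = 0.0151 and 0.163, exact permutation test), 0.95 without GF WT replicate 5 and 0.93 without the 2 arrays farthest from the median of Gcg. At day 0 the same pair was at 0.52 (adjusted p = 0.131 by permutation), which did not pass. Chgb followed Cck at day 7 (0.92, Spearman 0.93, p = 0.000198 and 0.00223, adjusted p = 0.00893 and 0.1004, exact permutation test), which was 0.80 without the 2 farthest arrays, and also Gcg (0.86, and 0.65 without the 2 farthest). Chga instead followed Insl5 (0.90, Spearman 0.79, p = 0.00149 and 0.0279, adjusted p = 0.0209 and 0.207, exact permutation test). At day 0 the correlation of Chga with Insl5 was -0.85 with GF WT replicate 6 and 0.58 without it, so its sign was set by that array.

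**Figure D4:**
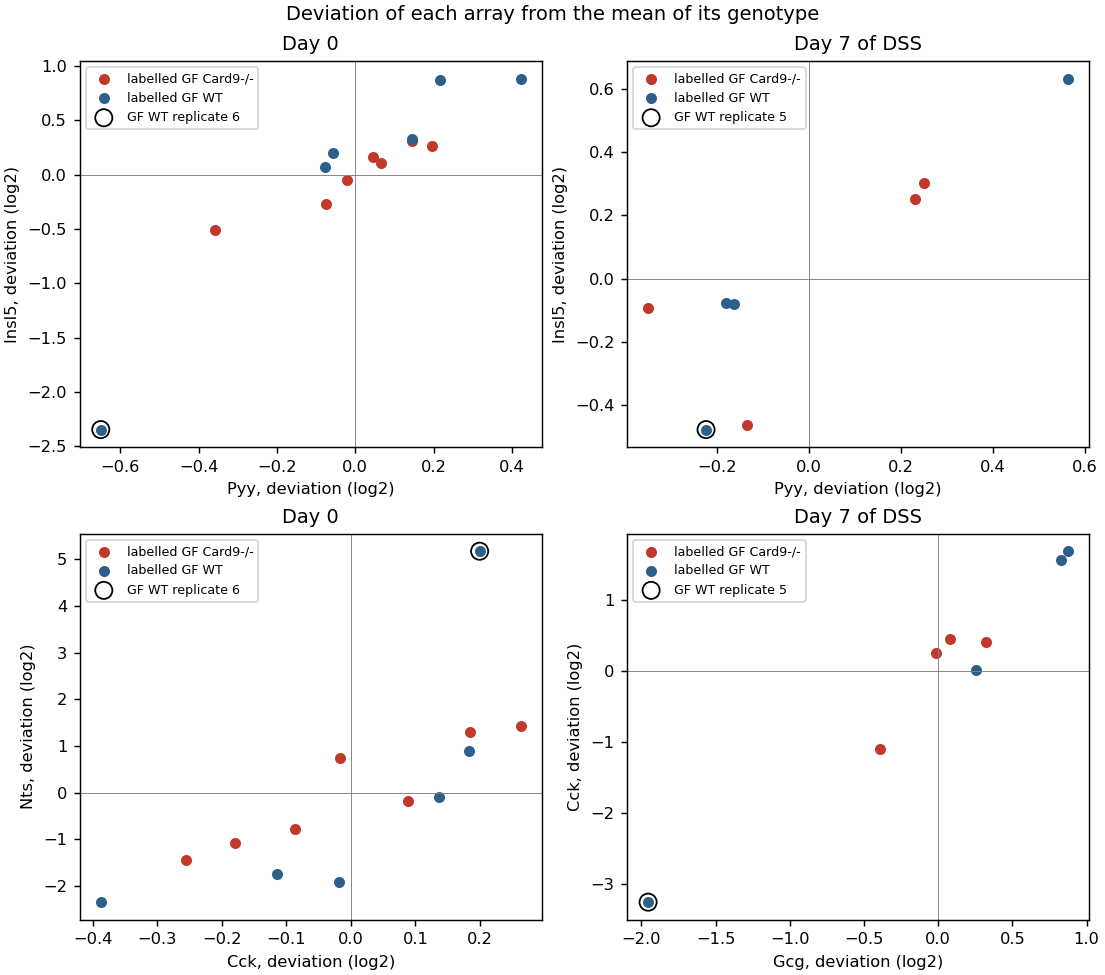
Deviation of each array from the mean of its label on the log2 scale, for Pyy and Insl5 at day 0 (top left) and day 7 (top right), Cck and Nts at day 0 (bottom left) and Gcg and Cck at day 7 (bottom right). Red points are arrays labelled GF Card9-/- and blue points GF WT. The ring marks GF WT replicate 6 at day 0 and GF WT replicate 5 at day 7. The Pyy and Insl5 points rise together on both days (0.93 and 0.86), with or without the ringed array. At day 7 the correlation falls to 0.69 without GF WT replicate 1, which is not ringed.

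Several of the other day 0 pairs that passed were weaker without GF WT replicate 6. Chga with Chgb went from 0.96 to 0.21 without it, Chga with Nts from 0.79 to -0.055, Chgb with Insl5 from -0.92 to -0.22, and Insl5 with Sst from -0.85 to -0.45. The 4 pairs that passed without this array were Pyy with Insl5, Cck with Nts, Sst with Neurod1 (-0.86, adjusted p = 0.0057, permutation test) and Sst with Tac1 (0.79, adjusted p = 0.045, permutation test, but Spearman 0.54, adjusted p = 0.180). With all 13 arrays, Sst with Neurod1 was at 0.14. Chga with Neurod1 (0.76, and 0.67 without the array) and Cck with Tac1 (0.66 and 0.64) kept their size but missed the threshold with 12 arrays (adjusted p = 0.0733 and 0.0778, permutation test).

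GF WT replicate 6 also stood apart in markers of the small intestine. Of 10 such genes, 7 had their highest day 0 signal in it, among them Sis (sucrase-isomaltase, 12.72, with 5.44 the lowest of the 13 arrays) and Slc10a2 (the bile acid transporter of the ileum, 14.90, with 9.23 the lowest). Their mean level, centered on each gene's mean, was 2.33 in this array, -0.83 to 0.21 in the other 5 labelled GF WT and -0.66 to 0.84 in those labelled GF Card9-/-. Lct and Apoa4, of the upper small intestine, were not highest in it. Secretin (Sct) was at 16.40 in it, the highest of the 13 arrays, and Tph1, the rate-limiting enzyme of serotonin synthesis in the gut, at 11.49, also the highest. In the same array Chga, Chgb, Sst and Nts were the highest of all arrays (2.01-fold, 2.06-fold, 2.33-fold and 53.2-fold above the median of the others) and Pyy and Insl5 the lowest (1.74-fold and 7.62-fold below). Over the 13 arrays, Nts correlated with the small intestine genes at 0.90 (Spearman 0.87, p = 0.00025 and 0.0003, adjusted p = 0.00437 and 0.015 over 50 relations, permutation test), 0.95 without the 2 arrays farthest from the median and 0.67 without GF WT replicate 6. The part of these small intestine markers in the hormone values was not tested.

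The Pyy and Insl5 genes are shown by the sequence upstream of their starts, because they were the pair that passed the threshold on both days with all arrays, together with Nts, which ran against Insl5, and with Gcg and Cck, the closest pair of day 7. The sequences are the 250 bases before the start from RefSeq on GRCm38, written 5′ to 3′ on the strand of the gene, and all 10 genes were found there. Pyy and Insl5 have 2 starts each, and the one with TATAA within 50 bases upstream is shown. Capitals mark the E-box CANNTG, which basic helix-loop-helix factors such as Neurod1 can bind. The windows are chr11:102107833-102108082 (Pyy), chr4:103026729-103026978 (Insl5), chr10:102490419-102490668 (Nts), chr2:62483654-62483903 (Gcg) and chr9:121495695-121495944 (Cck), all on the minus strand.
Pyy: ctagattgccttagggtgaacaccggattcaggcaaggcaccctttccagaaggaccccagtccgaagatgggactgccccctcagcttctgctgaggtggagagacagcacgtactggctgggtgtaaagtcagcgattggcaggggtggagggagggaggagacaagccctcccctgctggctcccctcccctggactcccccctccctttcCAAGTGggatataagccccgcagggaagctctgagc
Insl5: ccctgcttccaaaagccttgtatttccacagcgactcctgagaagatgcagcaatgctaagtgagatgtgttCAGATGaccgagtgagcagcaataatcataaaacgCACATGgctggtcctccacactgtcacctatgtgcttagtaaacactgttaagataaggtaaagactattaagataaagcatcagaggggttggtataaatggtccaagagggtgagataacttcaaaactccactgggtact
Nts: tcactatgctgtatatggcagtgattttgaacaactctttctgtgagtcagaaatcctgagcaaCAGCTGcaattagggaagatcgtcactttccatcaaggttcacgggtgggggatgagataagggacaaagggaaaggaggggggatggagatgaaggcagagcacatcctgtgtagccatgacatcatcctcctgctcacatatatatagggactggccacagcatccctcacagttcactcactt
Gcg: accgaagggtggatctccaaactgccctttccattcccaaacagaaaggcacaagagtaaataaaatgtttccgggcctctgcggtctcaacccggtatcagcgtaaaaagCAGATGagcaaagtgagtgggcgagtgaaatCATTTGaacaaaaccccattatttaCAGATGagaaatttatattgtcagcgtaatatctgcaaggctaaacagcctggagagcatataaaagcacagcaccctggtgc
Cck: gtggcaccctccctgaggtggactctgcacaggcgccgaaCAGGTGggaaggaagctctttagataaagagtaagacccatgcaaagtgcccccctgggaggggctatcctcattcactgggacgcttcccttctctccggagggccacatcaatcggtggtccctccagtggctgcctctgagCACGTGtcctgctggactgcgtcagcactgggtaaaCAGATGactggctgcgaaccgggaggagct
An E-box was found upstream of 10 of 10 genes, but also in 66.2% of all 32851 windows of this length, with a median of 1. It reads the same on both strands as a pattern. Gcg, Cck and Chga had 3 each, Insl5 and Tac1 2, and Pyy, Nts, Chgb, Sst and Neurod1 1. In Pyy the only E-box begins 36 bases before the start, next to the TATAA at 27, whereas the 2 of Insl5 begin 178 and 143 bases before it, and in Gcg and Cck the nearest ones begin at 83 and 30. TATAA within 50 bases upstream of any start, on the strand of the gene, was found in Gcg, Pyy, Insl5 and Neurod1, 4 of 10 genes, and in 5.32% of all 27025 genes counted the same way. The cAMP response element TGACGTCA, searched on both strands, was found upstream of Chgb and Sst, 2 of 10, and in 1.55% of all windows. These matches are letters in the sequence, not shown to be bound here.

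Tac1 followed the enteric neurons. Its correlation with the mean level of 12 enteric neuron genes was 0.94 at day 0 (Spearman 0.77, p = 1e-05 and 0.00276, adjusted p = 0.0005 and 0.0439 over 50 relations, permutation test) and 0.96 at day 7 (Spearman 1, p = 2.48e-05 and 4.96e-05, adjusted p = 0.00124 and 0.00248, exact permutation test). The first of the day 7 p-values is the smallest that 8 arrays allow. Without the 2 arrays farthest from the median it was 0.83 and 0.92. In GF Card9-/- replicate 5 at day 0, which had the lowest Tac1 (11.16), 10 of the 12 neuron genes were also at their lowest, Ret and Prph among them, and the level of the list was -0.97, against -0.25 to 0.35 in the other 12 arrays. Without that array the correlation was 0.85. At day 7, GF WT replicate 1 had the lowest Tac1 (10.96) and 11 of the 12 neuron genes at their lowest (list level -1.22), and Tac1 also correlated with 8 smooth muscle genes there (0.95, Spearman 0.93, adjusted p = 0.00558 and 0.0558, exact permutation test, and 0.84 without the 2 farthest arrays). Sst, which enteric neurons also make, was at 0.58 with the neuron genes at day 0 (adjusted p = 0.155, permutation test). Without GF WT replicate 6, Sst was at 0.88 with the neuron genes and at 0.86 with the smooth muscle genes (0.12 with all arrays). At day 7, on another probe, Sst was at 0.022 with the neuron genes. How much of the Tac1 or Sst RNA came from neurons and how much from epithelial cells was not tested.

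**Figure D5:**
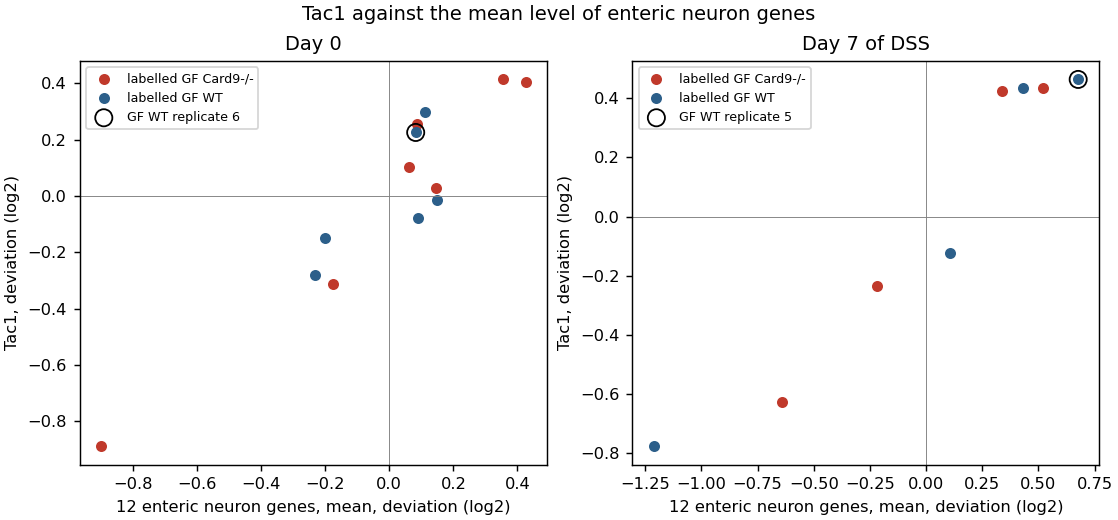
Tac1 (vertical axis) against the mean of 12 enteric neuron genes (horizontal axis), both as the deviation of an array from the mean of its label on the log2 scale, at day 0 (left, 13 arrays) and day 7 of DSS (right, 8 arrays). Red points are arrays labelled GF Card9-/- and blue points GF WT; the points rise together on both days (0.94 and 0.96), and the ringed arrays, which stand apart in other hormones, lie along the same course.

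Neurod1 ran against smooth muscle. It correlated with the smooth muscle genes at -0.84 at day 0 (Spearman -0.75, p = 0.00035 and 0.00453, adjusted p = 0.00437 and 0.0453, permutation test), -0.82 without GF WT replicate 6 and -0.70 without the 2 arrays farthest from the median. At day 7, on another probe, it was -0.50 and did not pass (adjusted p = 0.663, exact permutation test), and it ranged from -0.71 to -0.0038 with 1 array left out. GF Card9-/- replicate 5 had the highest Neurod1 (8.04) and the lowest signal of 8 of 8 smooth muscle genes. Nts correlated with epithelial genes at 0.75 (0.83 without the 2 farthest). Chga, Chgb and Insl5 correlated with the small intestine genes at 0.88, 0.91 and -0.88, and at 0.39, 0.65 and -0.41 without GF WT replicate 6. By Spearman correlation these 3 did not pass (0.61, 0.69 and -0.68, adjusted p = 0.141, 0.0906 and 0.0906, permutation test). At day 7, Cck correlated with the small intestine genes at 0.88 (adjusted p = 0.0405, exact permutation test), 0.77 without GF WT replicate 5 and 0.72 without the 2 farthest arrays. By Spearman correlation it was 0.83 and did not pass (adjusted p = 0.192, exact permutation test).

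GF WT replicate 5 at day 7, with the lowest signal of 7 of the 10 genes, was also lowest in 5 of 10 small intestine genes, and its list levels were -1.14 for the small intestine and -1.24 for tuft cells, the chemosensory cells of the epithelium. The other 7 arrays of that day had small intestine levels of -0.47 to 0.87. Its epithelial level was the lowest of the day (-0.33, 5 of 10 genes lowest), as were those of the serotonin genes (-0.61), the nutrient sensors (-0.63, 7 of 12 lowest) and the islet genes (-1.21). Its smooth muscle level (1.07, 5 of 8 genes highest) and its enteric neuron level (0.67) were the highest of the day. So was its level of the 18 genes for granules, prohormone processing and secretion (0.32, 9 genes highest and 1 lowest). The pancreas list, of exocrine enzymes, was highest in GF Card9-/- replicate 7 at day 0 (10.71) and replicates 6 and 2.1 at day 7 (8.20 and 4.26). The islet hormones Ins1 and Ins2 were well above background on 1 and 0 of 13 arrays at day 0, and on 1 and 8 of 8 at day 7. Islet cells also make Gcg, Sst and Pyy. Leaving out GF Card9-/- replicate 7 left 0 of 10 genes past the threshold at day 0 (Gcg 0.16, Sst -0.22, Pyy 0.11), and leaving out the 2 arrays of day 7 together left 0 of 10 at day 7. Without these 2 arrays the day 7 difference was 1.02 for Gcg and 0.17 for Sst, but Pyy went from 0.24 to 0.48, Insl5 from 0.46 to 0.74 and Nts from 1.13 to 0.52. The part of these in the differences of the hormones was not tested.

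The rest of the enteroendocrine machinery was followed in lists of genes named for their roles. By limma 0 of their genes passed the threshold on either day, and the genes named from them here for an unadjusted p under 0.05 were chosen after their values were seen. Over all probes tested, 57% were higher at day 0 and 50.4% at day 7, and 5.84% and 3.38% had an unadjusted p under 0.05. Of 9 tested genes of the 10 further gut peptides, 2 were higher with the label GF Card9-/- at day 0 and 7 were lower (median -0.28), and of 7 at day 7, 3 were higher and 4 lower (median -0.043). Of 6 serotonin genes, 4 were higher and 2 lower at day 0 (median 0.10) and 5 and 1 at day 7 (median 0.27). Maoa, which breaks serotonin down, had an unadjusted p of 0.0234 at day 7 with a difference of 0.80 (adjusted p = 0.913 by limma).

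Of 14 transcription factors of the lineage, 7 were higher and 7 lower at day 0 (median 0.065) and 9 and 5 at day 7 (median 0.16). Nkx2-2, a homeodomain factor of this lineage, had an unadjusted p of 0.00314 at day 0 with a difference of 0.51 (adjusted p = 0.407 by limma). Of 18 genes for granules, prohormone processing and secretion, 5 were higher and 13 lower at day 0 (median -0.088), and 8 and 10 at day 7 (median -0.024). In GF Card9-/- replicate 5, the array with the lowest neuron level of day 0, 9 of the 18 granule genes were at their day 0 lowest, and the part of the one in the other was not tested.

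Of 12 nutrient sensors, receptors and channels that drive hormone release, 10 were tested at day 0, 6 higher and 4 lower (median 0.22), and 11 at day 7, 9 higher and 2 lower (median 0.33). Trpm5, a cation channel that tuft cells also use, had an unadjusted p of 0.0223 at day 0 with a difference of 0.33 (adjusted p = 0.740 by limma). In a list of 22 genes made of the hormones' receptors and the peptidase Dpp4, 20 were tested on each day, 9 higher and 11 lower at day 0 (median -0.071) and 10 each way at day 7 (median 0.0020). Sstr1, a somatostatin receptor, had an unadjusted p of 0.0159 at day 0 with a difference of -0.42 (adjusted p = 0.682 by limma). Rxfp4, the Insl5 receptor, was well above background on 1 of 13 arrays at day 0 and 0 of 8 at day 7.

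Among markers of the other cells of the colon wall, 0 passed the threshold by limma on either day. Their counts stand beside shares over all probes tested of 57% above 0 and 5.84% with an unadjusted p under 0.05 at day 0, and of 50.4% and 3.38% at day 7, and nothing particular to a list was tested. At day 0, 8 of 8 smooth muscle genes (median -0.45) and 11 of 12 enteric neuron genes (median -0.20) were lower in the arrays labelled GF Card9-/-, while 9 of 10 epithelial genes (median 0.069) and 8 of 8 tuft cell genes (median 0.31, 4 of them with an unadjusted p under 0.05) were higher. At day 7, 7 of 8 smooth muscle genes were lower (median -0.38), 8 of 8 tuft cell genes higher (median 0.53, 1 with an unadjusted p under 0.05), 6 of 10 epithelial genes higher (median 0.077) and 7 of 12 neuron genes higher (median 0.0079). Of the small intestine genes, 3 were higher and 6 lower at day 0 (median -0.18) and 6 and 3 at day 7 (median 0.96, 3 with an unadjusted p under 0.05). Of the islet genes, 4 were higher and 2 lower at day 0 (median 0.19, 1 with an unadjusted p under 0.05) and 5 and 0 at day 7 (median 0.98). Of the exocrine pancreas genes, 10 were higher and 0 lower at day 0 (median 1.73). At day 7 these were 9 and 1 (median 5.22, 2 with an unadjusted p under 0.05). The part of these lists in the differences of the hormones was not tested.

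The genes most alike to each hormone, by Pearson correlation with the mean of each label removed, were sought over the 13 day 0 arrays among 15488 genes well above background on all of them. Insl5 was most like Ggh (0.99), Nxpe4 (0.99) and Hoxb13 (0.99), the last a homeobox gene of the hindgut. Nts was most like Gsdme (0.99), Sct (0.99) and Grin3a (0.99), and Sst most like Hoxb4 (0.97), AI448005 (0.96) and Fam3c (0.95). Insl5, Nts and Sst are among the genes in which GF WT replicate 6 stood apart. Without it, the leading genes were Mbd1 (0.96) for Insl5, Ppfia3 (0.98) for Nts, with Gsdme next (0.98), and Rrbp1 (0.98) for Sst.

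Tac1 was most like Stmn3 (0.97), Zcchc12 (0.97) and Rit2 (0.97), which were at 0.90, 0.94 and 0.93 over the 8 day 7 arrays, and Stmn3 and Zcchc12 were again among its leading genes without GF WT replicate 6. Gcg was most like Phox2a (0.84), Glud1 (0.84) and Btnl10 (0.83), and the same 3 led without that array (0.87, 0.88 and 0.83), but over the day 7 arrays they were at -0.065, -0.46 and -0.18. Pyy was most like Mbd1 (0.94), Xpr1 (0.94) and Cftr (0.93), Cck like LOC102638466 (0.91), Pld1 (0.91) and Snrpn (0.91), and Neurod1 like Endog (0.94), Soat2 (0.94) and Prelid2 (0.94), and without that array other genes led for each of the 3 (Cyp2d10 at 0.92, Fam162a at 0.94 and Ccdc166 at 0.97). Chga was most like Cubn (0.98), Lgals2 (0.98) and 4930577N17Rik (0.97), and Chgb like Bche (0.98), Adh5 (0.96) and Mfap3l (0.96); none of these led without that array. Over the day 7 arrays, the 3 genes of day 0 were at 0.25 to 0.54 for Chga, 0.29 to 0.92 for Chgb, 0.014 to 0.73 for Pyy, 0.34 to 0.70 for Insl5, 0.62 to 0.77 for Nts, 0.036 to 0.25 for Sst and 0.10 to 0.51 for Neurod1, and those of Cck with a day 7 value, Pld1 and Snrpn, at 0.98 and 0.054. The mean of the 10 genes was most like Tcim (0.98, and 0.96 without that array), and Sct, Gpatch2 and Mrps31 were also among its leading genes.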

How the data were processed

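The authors scanned single-color Agilent arrays, and the deposited scanner files (Agilent Feature Extraction 10.7.3.1 per the labels) hold intensities: the processed signal is corrected for local background, and a flag says whether a spot lies well above it. The scanner files also hold a detection p-value per spot. A deposited table per day holds the authors' log2 values, quantile-normalized per their methods, and was used as an alternative. Every per-sample column was mapped to a sample (0 left out).

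Spots of a probe were averaged after log2 transformation of the processed intensity and quantile normalization over the arrays of a day. Spots flagged as outliers in the scanner files were left out of the average. Probes were tested if the detection p-value of the scanner files was under 0.05 on at least 60% of the arrays of a label, as in the authors' methods. Labels were compared within a day with limma 3.58.1 (R 4.3.3) and Benjamini-Hochberg adjustment over all tested probes, threshold 0.05, after tests on simulated data. Day 0 correlations used 100000 permutations, and day 7 correlations all permutations. List levels are the mean over genes of the log2 signal minus each gene's mean over the arrays of the day. Precision is limited by how many arrays each label has.

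The 10 genes, the lists and the tests were chosen with earlier results of these data known. The rule for named genes gave the 10 members, Card9, list genes past the threshold (0 were), the 3 genes most alike to each member (5 for their mean) and the defining genes of lists that move with a member (some are not reported here). Other list genes were named after their values were seen. Relations to lists of other cell types and the alike genes without GF WT replicate 6 were added after seeing the data. Replicate numbers shared between labels did not pair the arrays. Alternatives were background correction, scaling, the filter on dim probes, the authors' table, slide and replicate number as blocks, values within slides, other probes, and each array left out. Replicates 2 and 2.1 of GF Card9-/- at day 7 differed about as much as other pairs (0.939 of the median spread) and were counted as 2 samples. That spread cannot tell 2 mice from 2 pieces of 1 colon, and the labels do not say which they are.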

Additional observations from a re-analysis of the deposited data

Results flagged for a closer look

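Within a label and day, the highest or lowest array was set against the gap to its nearest neighbor for 40 groups of 4 to 7 arrays, and in 6 of them it lay farther away than Dixon's critical value, where chance gives about 1 in 20. Of these, 4 are the day 0 array GF WT replicate 6, with a log2 signal of 14.68 for Chga, 15.67 for Chgb, 14.07 for Sst and 11.49 for Insl5. At day 7, Pyy in GF WT replicate 1 was at 15.02, above the other arrays of its label. Cck in GF Card9-/- replicate 2 was at 11.49, below the other arrays of its label. The cause was not tested.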

How the results depend on the processing

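With each alternative, 0 of 10 genes passed the threshold on either day. Over 233 alternative values of single genes at day 0, 211 kept the direction and 22 turned it (lowest adjusted p 0.367 by limma), and at day 7 162 of 171 kept it and 9 turned (lowest 0.763). The 12 probes past the threshold at day 0 became 27 with normexp background correction and 22 with the authors' log2 table or the well-above-background filter, and 8 to 16 with an array left out, and those of day 7 became 2 without GF Card9-/- replicates 2.1 and 6 together, 0 to 1 with 1 array left out, and those of the interaction 0 to 2. The shared replicate numbers gave correlations of -0.022 to 0.37 at day 0 (3 of 6 pairs over 0.1; 2 matched best with their own number) and of 0.029 and 0.11 at day 7, so they did not pair the arrays. With the replicate number as a block, 7 probes passed at day 0 and the Tac1 difference at day 7 turned to 0.26.

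The 15 correlated pairs of day 0 were 9 by Spearman, 9 without subtracting label means, 27 with slide means removed as well, 2 without the slide of GF WT replicate 6, and 4 (without that array) to 18 (without GF Card9-/- replicate 5) with an array left out. The 5 of day 7 were 0 by Spearman and 0 (without GF WT replicate 5) to 6. Without the slide of GF WT replicate 6, the day 0 difference turned to 0.13 for Chgb, -0.092 for Pyy, -0.027 for Insl5, 0.12 for Sst, 0.095 for Tac1 and 1.40 for Nts, and the correlation to 0.18 for Chgb with Pyy, 0.039 for Chgb with Insl5, -0.16 for Chgb with Sst and -0.084 for Sst with Nts. With slide as a block Chga was at -0.040, and another Tac1 probe, not above background, gave 0.057. Tac1 at day 7 was 0.029 with 75th percentile scaling, 0.016 with the authors' table and 0.082 without GF Card9-/- replicates 2.1 and 6, and the other Neurod1 probe gave -0.24. With an array left out, the day 0 difference ranged from -0.044 (without GF WT replicate 1) to 0.20 (without GF WT replicate 6) for Chga, -0.13 to 0.098 for Chgb, -0.023 to 0.19 for Pyy, up to 0.73 for Insl5, down to -0.31 for Sst and to -0.26 for Tac1, and -0.55 to 0.95 for Nts, and the correlation from -0.055 to 0.83 for Chga with Nts, down to -0.83 for Chgb with Pyy and to -0.94 for Chgb with Insl5, and up to 0.88 for Chgb with Sst and to 0.87 for Sst with Nts. At day 7 Tac1 ranged from -0.27 to 0.20 (0.14 without GF WT replicate 5), and the difference between days from -0.27 to 0.37 for Insl5 (0.060 without GF Card9-/- replicate 2.1) and from -0.081 to 0.39 for Tac1 (0.33 without GF WT replicate 5). The cause was not tested.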
